A study of Populus trichocarpa with 12 samples.

Results

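In young wood of Populus trichocarpa (black cottonwood), 92 of 41335 genes had no read in any of the 4 libraries from watered trees and reached a mean of at least 5 CPM (counts per 1 M counts of the library) after 5 or after 7 days without water. They were chosen from the counts themselves: 0 counts in all 4 day 0 libraries, and the stated mean over the 4 day 5 or the 4 day 7 libraries. Their difference from day 0 is therefore given as a description and was not tested. Because the day 0 libraries held 53.0 M counts in all, an absence of reads allows a day 0 level of up to 0.0566 CPM (3 counts over the group, counting error only). The genes were thus not detected in watered xylem at this depth, which is less than being shown to be silent.

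Differentiating xylem, scraped from debarked stems 5 cm above the soil, was taken from greenhouse trees grown for 3 months under 16 h of light and 8 h of darkness. Day 0 trees were fully irrigated (soil at 74% water, xylem at 80.6%). Day 5 trees had gone without water for 5 days, a mild drought (33% and 75.3%), and day 7 trees for 7 days, a severe drought (29% and 74.3%). Each group had 4 libraries of total RNA, and the labels name no other treatment or genotype for them. Whether libraries of a group came from separate trees is not stated, so p-values measure the spread between these libraries. Time without water cannot be told apart from tree age or harvest date. The labels speak of several plantings without tying a library to any of them.

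Differentiating xylem holds cells newly formed by the cambium that expand, lay down a thick secondary wall and, in vessels and fibres, die. Loss of water raises the hormone abscisic acid throughout a plant, and many genes that are little used in well-watered tissue are then transcribed. Poplar genomes also carry many runs of duplicated genes, and short reads from near-identical copies cannot be assigned to 1 of them. In bulk tissue, fewer cells of a type and less RNA per cell cannot be told apart. No gene name was found for any of the 41335 identifiers, either in the counts file or in RefSeq's gene list (assembly P.trichocarpa_v4.1). The members are therefore given by identifier, without a function. In these identifiers the digits before the G number the chromosome, and later digits rise along it. A T marks genes on unplaced scaffolds, where neighbouring numbers may lie on different scaffolds.

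Library totals ranged from 9.35 to 19.22 M counts. As a check of the tissue, the 5 genes published as secondary wall cellulose synthases, PtrCesA4, PtrCesA7 and PtrCesA8, were detected in every group. Their levels summed to 5617 CPM ± 2809 (SD, n = 4) on day 0, 1392 CPM ± 691 on day 5 and 274 CPM ± 340 on day 7. Detection at levels so unlike does not show that the groups held the same mix of cells. Marker lists of other cell types need gene names and could not be applied, so their part in the results was not tested. Of 7887 genes without a day 0 count, 4134 had no count in any library, 3753 had one on a drought day, 320 reached a mean of 1 CPM on a drought day and 92 reached 5 CPM. The members were 0.458% of the 20107 genes at 5 CPM or more on a drought day.

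The edges of the set were not sharp. Just inside the limit on level lay Potri.016G037000 (5.28 CPM on day 7) and Potri.005G224100 (5.29 CPM on day 5). Just outside lay Potri.009G034000 (4.94 CPM on day 5) and Potri.002G033100 (4.82 CPM on day 5). A single day 0 count kept out 55 genes that were otherwise at the level required, among them Potri.002G098400 at 99.6 CPM on day 5 and Potri.002G072700 at 72.0 CPM on day 7. In all, 401 genes had 1 to 10 counts on day 0 and at least 5 CPM on a drought day, and these near-silent genes served for comparison. They were joined by 19614 genes with more than 10 day 0 counts.

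On day 5 the mean level of the 92 genes ran from 0 to 81.2 CPM, with a median of 8.80. On day 7 it ran from 0.0423 to 62.4 CPM, with a median of 5.44. The limit of 5 CPM was met on day 5 alone by 41 members, on day 7 alone by 18 and on both days by 33. Against the day 0 limit, the 74 members at 5 CPM or more on day 5 were at least 93.4-fold to at least 1435-fold higher, with a median bound of 179-fold. The 51 members at that level on day 7 were at least 89.2-fold to at least 1103-fold higher, with a median bound of 207-fold. These bounds follow from the way the genes were chosen.

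Of the 92 members, 80 had a count in all 4 day 5 libraries and 57 in all 4 day 7 libraries. By library, 88, 86, 90 and 84 members had a count in day 5 replicates 1 to 4. In day 7 replicates 1 to 4 these numbers were 91, 59, 84 and 91, so replicate 2 alone stood low. The rule also admitted 41 members by day 5 alone and 18 by day 7 alone. No difference in detection between the days is therefore read from these numbers. All 8 drought libraries held a count of 52 members. At 1 CPM or more in each of these 8 libraries the number was 24, and at 5 CPM or more it was 3.

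**Figure D1:**
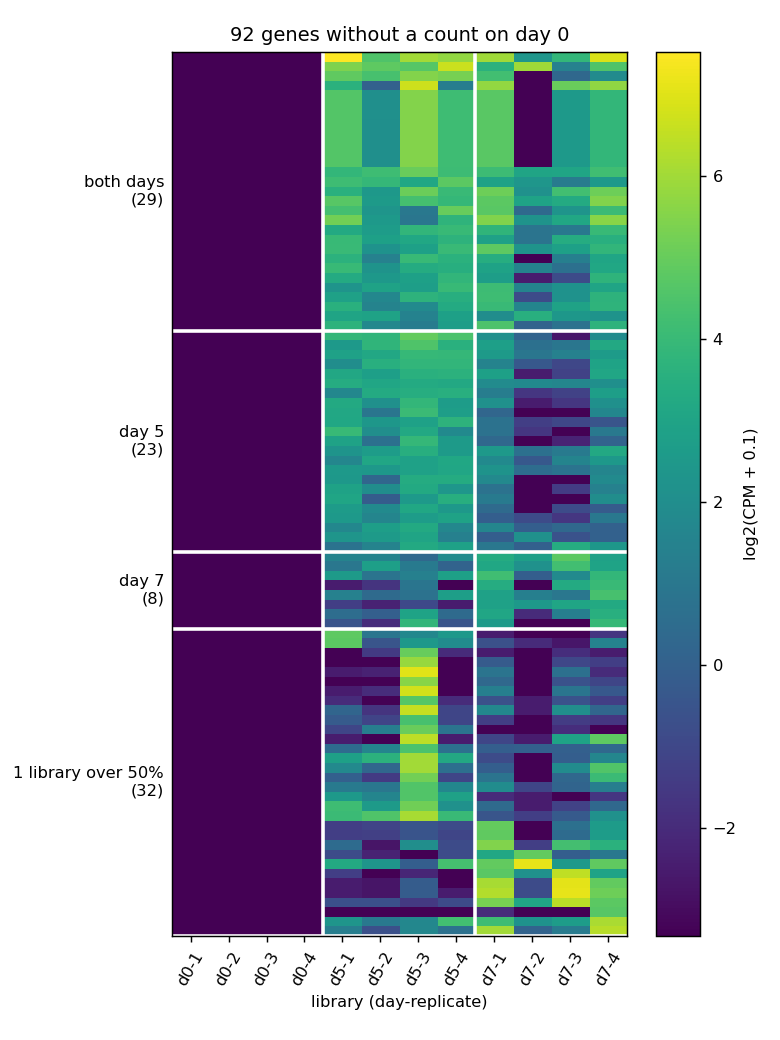
Level of the 92 members as log2(CPM + 0.1) (colour) in each of the 12 libraries (columns, day-replicate). Rows are grouped into 29 members at 5 CPM or more on both days, 23 on day 5, 8 on day 7, and 32 for which 1 library held over 50% of the sum of the 8 drought libraries; the day 0 columns are at 0 and the day 7 replicate 2 column is the emptiest of the drought columns.

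The 3 members at 5 CPM or more in every drought library were Potri.006G122400, Potri.001G282000 and Potri.012G011300, named here after their values were seen. Potri.006G122400 had the highest mean on day 5, with 183, 23.3, 65.2 and 53.3 CPM in replicates 1 to 4. On day 7 it stood at 62.1, 5.02, 14.2 and 120 CPM. Its libraries of both days overlapped widely, and the mean of day 5, 81.2 CPM ± 70.2 (SD, n = 4), lay within the spread of that of day 7, 50.3 CPM ± 52.7. The day 5 bound of at least 1435-fold rested in part on replicate 1, without which the day 5 mean was 47.3 CPM.

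Potri.012G011300 was the steadiest of these, with 14.3, 17.7, 32.3 and 17.005 CPM on day 5. Its day 7 values were 17.3, 7.92, 8.29 and 18.3 CPM. Potri.001G282000 had 26.1, 5.83, 20.1 and 14.6 CPM on day 5 and 27.1, 7.69, 9.81 and 44.6 CPM on day 7. In both genes the libraries of day 5 and day 7 overlapped, and the difference between the days did not pass edgeR's quasi-likelihood test (adjusted p = 0.225 and 0.582). Potri.001G173000, the second highest on day 5, had 42.9, 28.6, 25.5 and 99.4 CPM there. On day 7 it had 12.1, 62.4, 2.59 and 23.4 CPM, with replicate 2 the highest, and the days overlapped again.

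The 2 members with the highest day 7 means were Potri.004G180200 and Potri.004G180000. The former had 75.9, 0.457, 138 and 35.2 CPM in the day 7 libraries. The latter had 67.5, 0.457, 136 and 29.9 CPM there. Both were close to absent on day 5, at no more than 0.793 CPM in any library, and day 7 replicate 2 lay within that day 5 range.

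Each drought library contributed unequally. Summed over the 92 members, the level was 1018, 432, 2093 and 911 CPM in day 5 replicates 1 to 4, a mean of 1113 CPM ± 701 (SD, n = 4). In day 7 replicates 1 to 4 it was 1274, 359, 807 and 1222 CPM, a mean of 915 CPM ± 426. Day 5 replicate 3 was the highest and day 7 replicate 2 the lowest of the 8, and the sums of the 2 days overlapped. The share of all counts was at most 0.209%.

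**Figure D2:**
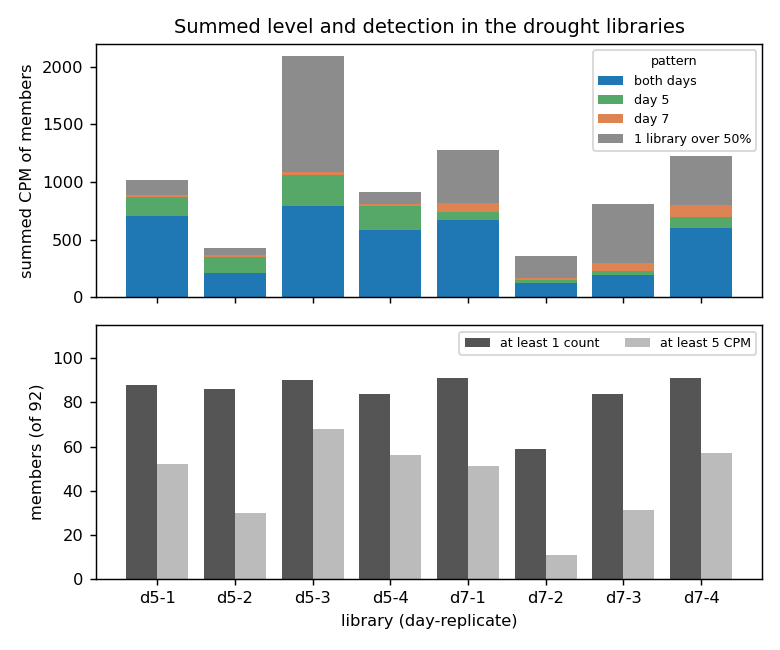
Summed CPM of the members by pattern (upper panel, stacked) and number of members with at least 1 count or at least 5 CPM (lower panel) in the 8 drought libraries (day-replicate). Day 5 replicate 3 holds 2093 CPM, 1002 of it from members with over 50% in 1 library, and day 7 replicate 2 holds a count of 59 members against 84 to 91 in the other drought libraries.

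Day 7 replicate 2 held few of these transcripts. There 33 of the 92 members had no count, against 1, 8 and 1 in the other day 7 libraries, although its 13.14 M counts were within the range of theirs (12.95 to 17.73 M). Of the 51 members at 5 CPM or more on day 7, this library was the lowest in 44 (86.3%), and 17 had no count in it. Counted once per set of near-identical copies (counts that differed by under 5%, a choice made after seeing the data), it was the lowest in 35 of 42 profiles (83.3%), and 9 of these had no count. In the members' range of day 7 means (5 to 62.4 CPM, with levels not matched further), it was the lowest for 69.3% of near-silent genes. It was also the lowest for 28.8% of genes with more than 10 day 0 counts. The ratio of its level to the mean of the other day 7 libraries had a median of 0.0690 in the members (0.122 with copies counted once), 0.278 in the near-silent genes and 0.987 in the others. In the same library the cellulose synthase genes summed to 785 CPM, against 99.7 to 111 CPM in replicates 1, 3 and 4, and 30315 genes had a count, against 31343 to 32119. The part of these differences in the members' values was not tested.

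Day 5 replicate 2 was also low. Of the 74 members at 5 CPM or more on day 5, it was the lowest library in 45 (60.8%; 56.7% with copies counted once) and the highest in 0. In the members' range of day 5 means (5 to 81.2 CPM), it was the lowest for 50.6% of near-silent genes. It was also the lowest for 14.6% of genes with more than 10 day 0 counts. Its 19.22 M counts were the most of any library, and 86 of the 92 members had a count there. Its cellulose synthase genes summed to 1987 CPM, against 1184, 1892 and 506 CPM in replicates 1, 3 and 4. Replicate 3, the next highest in these genes, had the highest summed member level (2093 CPM).

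A few members went the other way in day 7 replicate 2. It was the highest of the day 7 libraries for 5 members, named after their values were seen: Potri.001G173000, Potri.005G193600, Potri.005G244600, Potri.012G034900 and Potri.016G064000. Potri.005G193600 had 140 CPM in replicate 2, with 29.7, 5.53 and 29.2 CPM in replicates 1, 3 and 4. On day 5 it had 9.60, 4.94, 0.854 and 19.9 CPM. Potri.016G064000 had 30.4 CPM in replicate 2, against 8.96, 0.846 and 1.93 CPM in the others, and at most 0.464 CPM on day 5.

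Many of the means rested on 1 library. For 32 members a single library held over 50% of the summed level of all 8 drought libraries: day 5 replicate 3 for 18, day 7 replicate 3 for 4, day 7 replicates 1 and 4 for 3 each, and day 5 replicate 1 and day 7 replicate 2 for 2 each. Within a day, the highest library held over 50% of the 4-library sum in 30 of the 74 members at 5 CPM or more on day 5 (40.5%), and in 36 of 51 on day 7 (70.6%). In the members' ranges of means these shares were 31.6% and 37.3% among near-silent genes. Among genes with more than 10 day 0 counts they were 2.34% and 4.98%. Near-identical copies weigh on the members' shares: counted once per set of copies, they were 30 of 67 on day 5 and 27 of 42 on day 7. The median biological coefficient of variation, the square root of edgeR's dispersion over all 12 libraries, was 0.872 in the 79 members that passed the filter on low counts, 0.677 in 388 near-silent genes and 0.215 in 16130 others. For the others, the larger drought-day mean was capped at the members' highest.

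**Figure D3:**
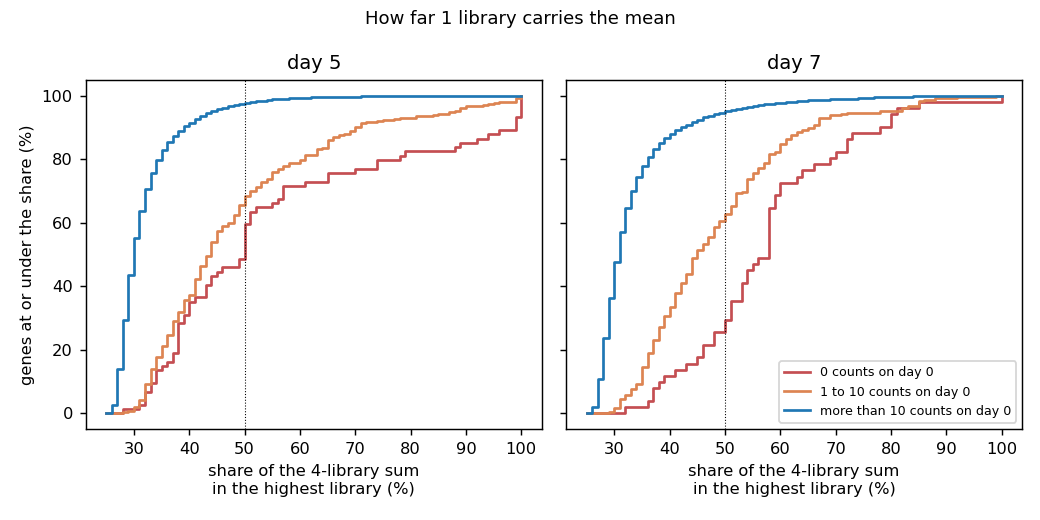
Cumulative share of genes (vertical axis, %) by the part of the 4-library sum that the highest library holds (horizontal axis, %), for day 5 and day 7, in genes with 0, 1 to 10 or more than 10 day 0 counts. All had a mean that day from 5 CPM up to the highest member mean. The dotted line marks 50%, above which lie 40.5% of members on day 5 and 70.6% on day 7.

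The members carried by day 5 replicate 3 were the clearest group of this kind. Potri.001G221900 had 131 CPM in that library, and 0.0756, 0.104 and 0 CPM in replicates 1, 2 and 4. On day 7 it had at most 1.70 CPM. Potri.015G024100, on another chromosome, had 93.6 CPM in day 5 replicate 3 and 0.208 to 1.06 CPM in the other day 5 libraries. Potri.T131400, on an unplaced scaffold, was also highest there, with 11.9, 0.936, 103 and 2.32 CPM on day 5, but reached 54.4, 0, 32.5 and 53.0 CPM on day 7. Without day 5 replicate 3, only 55 of the 74 day 5 members kept a mean of 5 CPM, against 71 to 74 without any other day 5 library. On day 7 the lowest numbers were 41 of 51 without replicate 4 and 43 without replicate 1. The largest part held by 1 library was 99.4%, in Potri.001G107700, with 26.1 CPM in day 7 replicate 4, 0.154 CPM in replicate 1 and 0 in the other 6 drought libraries.

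Members were spread over all 19 chromosomes, with 19 on chromosome 1, from 2 to 7 on each of the others and 7 on unplaced scaffolds. Of the 92 members, 27 (29.3%) lay within 5 identifiers of another member, in 9 runs. Among the near-silent genes, 92 of 401 (22.9%) lay that close to another gene of their own set. Of all genes at 5 CPM or more on a drought day, 1.98% had a member of the set that near. Near-identical copies weigh on the 29.3%: 1 run held 9 of the 27 members, and 28 of its 36 pairs were near-identical. It was not recomputed with copies counted once, and is not read as above the 22.9% of the near-silent genes.

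The longest run lay on chromosome 1, with 9 members between Potri.001G011100 and Potri.001G012900. Of these, 5 had counts identical to each other in all 12 libraries, and a further 3 differed from them by 0.349% of their counts or less. Potri.001G012900 stands for these 8, with 24.1, 4.16, 45.0 and 17.6 CPM on day 5 and 26.8, 0, 5.81 and 14.3 CPM on day 7. Potri.001G011100 lay lower, at 12.2, 2.65, 15.5 and 12.1 CPM on day 5 and 10.6, 0, 2.43 and 8.10 CPM on day 7, and followed the same order of libraries closely. Such agreement is what reads counted for each of several near-identical copies would give, so the 8 identifiers are not 8 separate measurements. The set also included Potri.001G012500 by its drought values (means of 22.7 and 11.7 CPM), but that gene had 1 day 0 count and is no member.

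The 4 members between Potri.001G221100 and Potri.001G221900 shared their single high library. Day 5 replicate 3 held 58.2, 110, 48.0 and 131 CPM of Potri.001G221100, Potri.001G221500, Potri.001G221700 and Potri.001G221900. In the other 7 drought libraries none of the 4 exceeded 2.47 CPM. Their levels relative to each other also varied, so they were not copies with shared counts throughout.

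**Figure D4:**
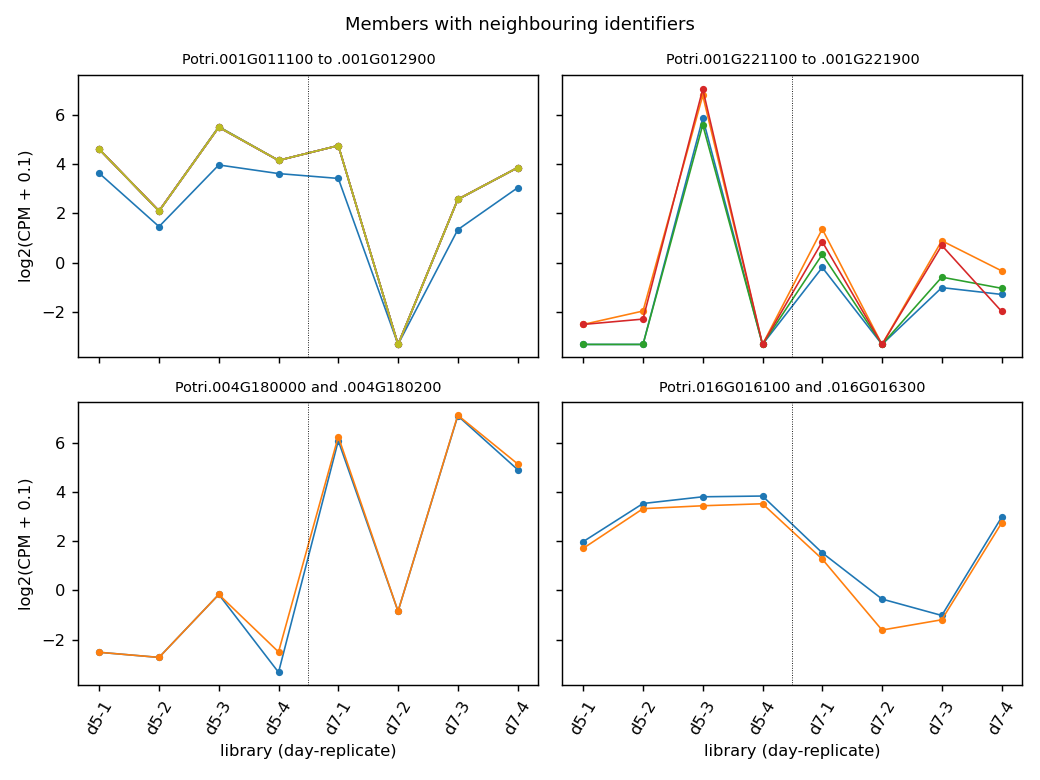
Level as log2(CPM + 0.1) in the 8 drought libraries (day-replicate; dotted line between the days) for 4 runs of members with neighbouring identifiers, 1 line per gene. In the first run 8 of the 9 lines lie on top of each other, the second run is high in day 5 replicate 3 alone (48.0 to 131 CPM), the third on day 7 except replicate 2, and the fourth on day 5 and in day 7 replicate 4.

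The pair Potri.004G180000 and Potri.004G180200 differed by 2.87% of their counts, and the pair Potri.017G040500 and Potri.T101700 by 3.15%. For both pairs, reads shared between copies cannot be told apart from like levels. Potri.017G040500 had 31.3, 0, 1.52 and 6.17 CPM in the day 7 libraries and at most 0.610 CPM on day 5. Treating copies that differed by under 5% of their counts as 1, the 92 identifiers formed 83 profiles. The remaining runs were pairs. Potri.016G016100 had 3.85, 11.4, 13.8 and 14.1 CPM on day 5 and 2.78, 0.685, 0.395 and 7.71 CPM on day 7. Its neighbour Potri.016G016300 followed at 3.17, 9.88, 10.7 and 11.4 CPM and 2.32, 0.228, 0.338 and 6.55 CPM.

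The direct comparison of severe with mild drought left the day 0 libraries out of the contrast. The rule still enters it through the higher of the 2 means, so a member admitted by 1 day alone had to be lower on the other. By edgeR's quasi-likelihood test over 26943 genes, 42.1% of all genes differed between day 7 and day 5 (22.3% higher on day 7 and 19.9% lower). Of the 92 members, 79 passed the filter on low counts, and 27 of these differed (34.2%), with 10 higher on day 7 and 17 lower. None of the 10 was at 5 CPM on day 5, and 1 of the 17 was at 5 CPM on day 7. The rule thus set the direction of all other called members, and the p-values printed for them lend it no support. With no filter on low counts the shares were 30.4% of 92 members and 29.4% of all genes, and the difference in share was not tested. Of the 13 members not tested, 12 had over 50% of their level in 1 library. The median log2 fold change of the 79 was -0.92, and that of the 71 profiles left with copies counted once was -0.95, against 0.0060 over all genes tested. Among 388 near-silent genes the median was -0.998, with 48.7% called (57 higher and 132 lower), so this lean was not particular to the members.

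For members at 5 CPM or more on both days, the choice of genes fixes the direction least. It still limits how low the lesser mean can be, so nothing is read from the share called. Of these 33, 32 were tested and 1 was called (3.13%, with 42.1% of all genes called). Their median log2 fold change was -0.63, or -0.18 over 25 profiles with copies counted once, since 8 of the 32 are the copies on chromosome 1 described above. That gene was Potri.012G001000, at 17.8, 14.8, 8.60 and 27.7 CPM on day 5 and 7.49, 5.10, 2.20 and 5.63 CPM on day 7. In log2 units it fell by 1.70 ± 0.43 (SE; adjusted p = 0.0142 by edgeR), and every day 7 library lay below every day 5 library.

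The medians leaned on the libraries that stood apart. Without day 5 replicate 3 the median of the tested members was -0.34, and without day 7 replicate 2 it was -0.50. With both left out, a choice made after seeing the data, it was 0.049 over 81 members, with 16 members higher and 11 lower. With copies counted once these 3 medians were -0.55, -0.73 and -0.26, so the sign of the last turned on the copies.

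**Figure D5:**
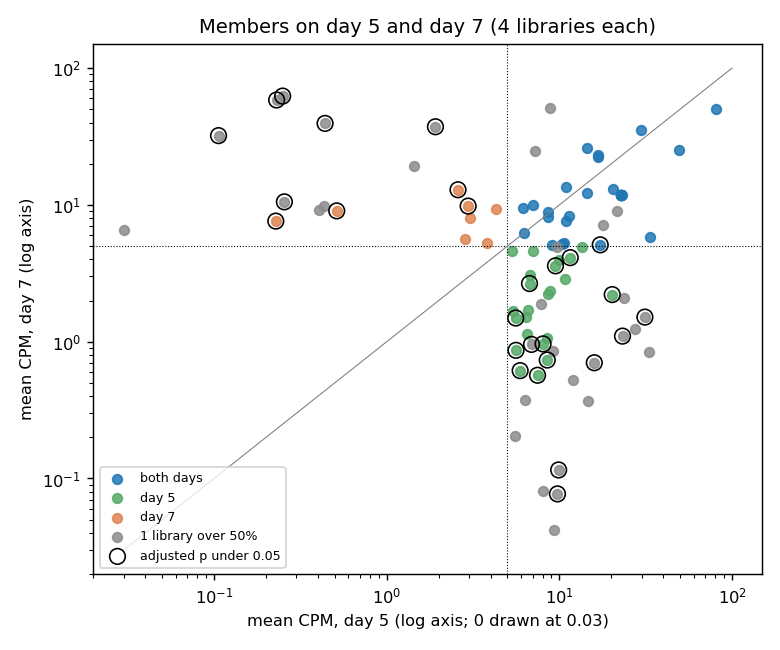
Mean CPM of each member on day 5 (horizontal) and day 7 (vertical), both on log axes over 4 libraries, with 0 drawn at 0.03; dotted lines mark 5 CPM and the grey line equal levels. Circles mark the 27 members with an edgeR adjusted p under 0.05; 10 of them lie above the line, 17 below it, and 1 of the circled genes is at 5 CPM or more on both days.

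The libraries of both days did not overlap in 24 of the tested members, or 30.4%, against 38.7% of all genes tested. Of these members 5 were higher on day 7 (17.8% of all genes) and 19 lower (21.0% of all genes). Only Potri.012G001000 and Potri.007G049400 among the 24 were at a mean of 5 CPM on both days. For the rest the rule had set the direction, so nothing is read from this split. The largest rises without overlap were those of Potri.019G011000 and Potri.010G241000. Both entered by day 7 alone, so their p-values lend the direction no support. Potri.019G011000 had 0.302, 0, 0.122 and 0 CPM on day 5 and 26.5, 4.34, 89.8 and 7.71 CPM on day 7. Its log2 fold change was 8.32 with an SE of 1.41 (adjusted p = 0.00223 by edgeR). Potri.010G241000 had 0.244 to 0.529 CPM on day 5 and 39.3, 8.14, 82.9 and 27.3 CPM on day 7. Its log2 fold change was 6.55 with an SE of 0.79 (adjusted p = 0.000542 by edgeR). In both genes day 7 replicate 3 was the highest and replicate 2 the lowest of its group, as in the Potri.004G180000 pair.

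In that pair both log2 fold changes were 7.96 (adjusted p by edgeR = 0.00498 for Potri.004G180200 and 0.00561 for Potri.004G180000), with an overlap through day 7 replicate 2. With limma-voom both calls were lost (adjusted p = 0.240 and 0.244). The member with the least spread among those higher on day 7 was Potri.007G084800, singled out after its values were seen. It had 0.302, 0.104, 0.427 and 0.0773 CPM on day 5 and 7.26, 5.40, 8.29 and 9.48 CPM on day 7. Its log2 fold change was 5.07 with an SE of 0.49 (adjusted p = 0.000249 by edgeR). Here replicate 2 was close to its group. The members of this paragraph also entered by day 7 alone, so the rule had set their direction.

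The largest falls without overlap were those of Potri.006G101200 and Potri.014G086400. Both entered by day 5 alone, so their p-values lend the direction no support. Potri.006G101200 had 28.6, 1.77, 3.17 and 5.41 CPM on day 5 and 0.0772, 0, 0 and 0.231 CPM on day 7. In log2 units it fell by 6.89 with an SE of 1.33 (adjusted p = 0.00411 by edgeR). Potri.014G086400 had 5.59, 2.97, 23.9 and 7.19 CPM on day 5 and 0.154, 0.0761, 0 and 0.231 CPM on day 7. It fell by 6.36 with an SE of 0.96 (adjusted p = 0.00135 by edgeR). Both were thus close to absent again on day 7. The neighbour of the former, Potri.006G101100, had 27.1, 0.624, 5.37 and 3.63 CPM on day 5 and 0.540, 0.152, 0.0564 and 2.70 CPM on day 7, which did not pass the test (edgeR adjusted p = 0.0677).

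The member with the least spread on day 5, Potri.002G094800, was again singled out after its values were seen. Its level was 10.4, 8.38, 9.88 and 9.35 CPM on day 5 and 3.71, 3.43, 3.05 and 4.16 CPM on day 7. In log2 units it fell by 1.34 with an SE of 0.18 (adjusted p = 0.000901 by edgeR). Day 5 replicate 3 and day 7 replicate 2 were both close to their groups in this gene. Potri.T089000 and Potri.T089100 are adjacent in number, though perhaps on different scaffolds. Like Potri.002G094800, both entered by day 5 alone, so the rule had set their direction. They fell by 4.34 and 4.32 in log2 units (adjusted p = 0.0155 and 0.00562 by edgeR), from 7.10 to 64.1 CPM and 16.2 to 69.1 CPM on day 5 to at most 4.39 CPM on day 7.

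Of the 27 called members, 19 were called whichever single library was left out, 7 of them higher and 12 lower on day 7. The other 8 lost the call without at least 1 library. Members higher on day 7 had log2 fold changes from 1.81 to 8.32, and those lower from -6.89 to -1.28. None of the 10 higher members was at 5 CPM on day 5. For all 27 but Potri.012G001000 the rule had set the direction, so nothing is read from these numbers.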

How the data were processed

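The counts deposited by the authors are raw whole numbers per gene identifier in 12 libraries. TopHat is named in the submitters' processing notes. Its version, and the build, read counter and strand setting, were not given in the sources used here. Overlapping and antisense genes may therefore share counts, and near-identical copies may split reads or each be given them. CPM was computed as count over column sum. A day 0 level of 0 was set to 3 counts over the group for fold bounds.

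Day 7 was compared with day 5 in edgeR 4.0.16 (R 4.3.3): filterByExpr with a minimum count of 10, TMM scaling, a quasi-likelihood fit with 1 mean per group over all 12 libraries, and Benjamini-Hochberg adjustment over 26943 genes at 0.05. Each SE is |log2 fold change| / √F. limma 3.58.1 (voom), DESeq2 1.42.0, other scalings and filters, the drought libraries alone, a replicate block and each library left out were alternatives. The edgeR test was tried on simulated counts. Library totals of 9.35 to 19.22 M set the precision, and bounds cover counting error only. Libraries of a group always differed by more than sampling noise, with 12.2 to 94.5 chi-square units for each degree of freedom. Figures used matplotlib 3.10.9.

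The members, lists and tests were chosen with earlier results of these data known. Without gene names, the rule names the 2 members of highest mean on each drought day, and the 2 largest changes per direction from day 5 to day 7 among called members without overlap; other identifiers were chosen after their values were seen. Lists by product name, promoter motifs and sequences were not analysed here.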

Additional observations from a re-analysis of the deposited data

Results flagged for a closer look

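Dixon's 95% criterion was applied to 49 groups of 4 libraries and marked 1 library in each of 10. Chance flags about 1 in 20 groups, but these groups share genes and libraries, and several genes were picked for such a jump. On day 5 the highest library stood apart for Potri.001G221500 (110.1 CPM), Potri.001G221900 (131.4 CPM), Potri.015G024100 (93.64 CPM), Potri.T089100 (69.12 CPM) and Potri.T131400 (102.9 CPM), each time replicate 3. It also did for Potri.004G180000 and Potri.004G180200, both at 0.7931 CPM in replicate 3. For Potri.006G101200 it was replicate 1, at 28.64 CPM against 1.77 to 5.41 CPM.

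On day 7 the highest library stood apart for Potri.T089100, at 4.395 CPM in replicate 4 against 0.304 to 0.733 CPM. The summed cellulose synthase markers were at 784.5 CPM in day 7 replicate 2, against 99.7 to 111 CPM. The cause of these values was not tested.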

How the results depend on the processing

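The set counted 92 genes, and the same 92 with TMM-scaled libraries. It counted 47 with a limit of 10 CPM, 147 with at most 1 day 0 count allowed, 71 with medians in place of means, 83 with near-identical copies counted once, and 83 without day 5 replicate 3 and day 7 replicate 2 together. Leaving out 1 library at a time gave 76 (without day 5 replicate 3) to 129 (without day 0 replicate 4). Between day 5 and day 7, 10 members were called higher and 17 lower. By limma-voom 5 were higher and 25 lower, and by DESeq2 11 and 20, with 3 members left without an adjusted p. With day 5 replicate 3 and day 7 replicate 2 both left out, 16 were higher and 11 lower, of which 9 and 10 were called so before. With copies counted once, 9 were higher and 17 lower. Without any 1 library, 7 to 13 were higher and 12 to 20 lower, and the median log2 fold change lay between -1.35 and -0.34. RLE and upper-quartile scaling, the other filters and the drought libraries alone gave 7 to 10 higher and 17 or 18 lower. Every one of the 27 called members kept its direction in all settings in which it was fitted. For all of them but Potri.012G001000 the rule had set that direction, so nothing is read from this. Potri.006G122400, not called, had a log2 fold change of -0.66 that became 0.16 without day 5 replicate 1 and -1.55 without day 7 replicate 4; the cause was not tested.

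Libraries of the same number did not all deviate together: over 12 such pairs r ran from -0.17 to 0.49, with 4 above 0.1, and 3 of 12 libraries were closest to their own number. The highest r was that of replicate 2 on day 5 and day 7, the libraries with the lowest summed member level of their days. With the replicate block 10 members were higher and 17 lower (7 and 15 shared), with a median of -1.41. Depth limits the set itself, since genes below 0.0566 CPM on day 0 cannot be told from genes at 0.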

Other observations

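Genes that were nearly undetected on day 0 often lay beside members. Of the 92 members, 36 had a gene with 1 to 10 day 0 counts and at least 5 CPM on a drought day within 5 identifiers, and 44 (47.8%) had such a gene or another member that near, against 9.91% of all genes at 5 CPM or more on a drought day. Near-identical copies, such as those on chromosome 1, were each counted in these shares. On chromosome 2, the member Potri.002G072800 had means of 1.91 CPM on day 5 and 37.2 CPM on day 7 (edgeR adjusted p = 0.0329, lost without any 1 of the day 5 libraries or without day 7 replicate 1 or 4). Its day 7 libraries held 65.0, 0.989, 2.20 and 80.8 CPM. Replicates 2 and 3 thus lay within its day 5 range of 0.520 to 3.17 CPM. It entered by day 7 alone, so the rule had set its direction. Its neighbours Potri.002G072700, with 1 day 0 count, and Potri.002G072600, with 2, had means of 3.92 and 5.98 CPM on day 5 and 72.0 and 112 CPM on day 7. Potri.005G200500 had 7.20 and 24.8 CPM on the 2 days, and its neighbour Potri.005G200600, with 3 day 0 counts, 44.4 and 174 CPM.

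Neighbours did not always share a day. Potri.010G241000 had means of 0.439 CPM on day 5 and 39.4 CPM on day 7, while the adjacent Potri.010G240900, with 1 day 0 count, had 5.36 and 0.298 CPM. Potri.T094700 had 10.9 and 13.5 CPM, and Potri.T094800, with 3 day 0 counts, 5.99 and 0.147 CPM. These genes were chosen after their values were seen, and no difference between neighbours was tested.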
